A study of Mus musculus with 4 samples.

Results

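RAB GTPases are small membrane-bound switches that give each compartment of the cell its identity. In the GTP-bound state a RAB recruits effectors such as tethers and motor adaptors, so that vesicles bud, move and fuse at the right membrane. Exchange factors load a RAB with GTP, GTPase-activating proteins switch it off, and escort proteins and prenyltransferases attach the lipid that holds it in the membrane. Dendritic cells depend on this machinery to take up antigen, pass it through phagosomes and late endosomes, and bring loaded MHC molecules and cytokines to the surface.

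The genes described here are those whose symbol in the array's annotation is Rab followed by a digit, without names that contain if, gap, ep or gef. This rule found 69 of the 18194 genes on the array. Of these, 59 encode RAB GTPases, 7 encode proteins that bind RABs (Rab11fip1 to Rab11fip5, Rab3ip and Rab3il1), and 3 are opposite-strand transcripts (Rab10os, Rab26os and Rab11fip4os1). The 59 GTPases were placed in 6 groups by a compartment each is linked to, with earlier results of these data known. Several work in more than 1 or at another, such as Rab24 at autophagosomes, Rab42 at phagosomes and Rab29 at the trans-Golgi. Other placements were therefore possible.

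Expression was measured on 4 Affymetrix arrays, 2 from dendritic cells treated with SAHA and 2 from cells given diluent (control). SAHA (vorinostat) inhibits histone deacetylases, and the labels give the dose as 500 nm for 12 hours. All cells were grown from C57BL/6 bone marrow, taken from at least 3 mice per experiment, for 7 days in GM-CSF and IL-4 at 10 ng/ml each, and were selected for CD11c to a stated purity of 95%. The arrays of a group are labelled as biological replicates, without naming a separate marrow pool for each. A p-value here therefore speaks only of how far these 4 arrays differ, which may be technical.

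Values are log2 probe set values, and each gene was read by its brightest probe set. A level is relative to its own probe set only, so levels are not set against each other between genes. The dendritic cell markers Itgax, H2-Ab1 and Cd74 lay above the 25th percentile on every array, as did each of the 12 dendritic cell markers examined. So did all 6 markers of macrophages and monocytes, so this level does not tell these cells apart. No dendritic cell marker passed the threshold used below. Both SAHA arrays lay above both controls for 1 and below them for 5, where 21.1% and 29.6% of all genes did. Ciita had the largest rise, 1.09, and Fscn1 the largest fall, -0.74. Some markers of other cells differed between the groups. Of 10 neutrophil markers 1 was higher and 5 were lower with SAHA past the threshold used below, and their summed linear values were 8900 to 10687 in SAHA-treated and 6363 to 8843 in control arrays. Most of that sum is Mmp8, at 13.05 and 12.75 in SAHA-treated and 12.41 and 11.68 in control arrays (adjusted p = 0.143 in limma). The median log2 change of the list was -0.66. Of the 10 markers 7 had both SAHA arrays below both controls, where 29.6% of all genes did. The marker called higher was Prtn3, with a change of 3.65 (adjusted p = 0.00833 in limma). Of 6 osteoclast markers 2 were lower, with sums of 4245 to 7054 in SAHA-treated and 7816 to 10630 in control arrays, and Calcr was under the 25th percentile on all 4 arrays. No marker passed among 6 of macrophages and monocytes, 9 of mast cells and basophils or 6 of lymphocytes. The arrays read RNA from the whole culture, so fewer cells of a type and less RNA per cell cannot be told apart.

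No RAB gene passed the test. Of the 69 genes 0 were higher and 0 lower with SAHA (limma over all genes, Benjamini-Hochberg adjusted p under 0.05), where 2.23% of all genes were called, 1.52% higher and 0.709% lower. At an unadjusted p under 0.05 there were 7 higher and 3 lower RAB genes in limma, or 14.5% of them against 18.1% of all genes (9.17% higher and 8.9% lower). The largest changes were those of Rab27a, Rab44, Rab34 and Rab24, at 0.83, 0.80, 0.76 and 0.63 log2 units above control, and of Rab11b and Rab29, at -0.53 and -0.52. Of the 59 GTPases, 30 had a change above 0 and 29 below 0, with a median of 0.0037 against -0.048 for all genes. Their median absolute change of 0.15 log2 units was close to the 0.17 of all genes.

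The intervals show how far the arrays bound these changes, each for the probe set used and no other. For 35 of the 59 GTPases the 95% interval of the change lay within 1.5-fold in either direction, and for 55 it lay within 2-fold. Of all 18194 genes this held for 10563 and 16229, which are similar shares. Another probe set of a gene can lie outside its interval. That of Rab6b ran from -0.36 to 0.39, while another of its probe sets gave 1.09. Rab39 and Rab9b count as within 1.5-fold, but lay under the 25th percentile on all 4 arrays, where a value gives no fold. Both SAHA arrays lay above both control arrays for 15 GTPases and below them for 17. Over all genes this held for 21.1% above and 29.6% below, against 25.4% and 28.8% of the GTPases. With 2 arrays a group, the smallest p an exact permutation test (two-sided) of a single gene can give is 0.333.

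**Figure D1:**
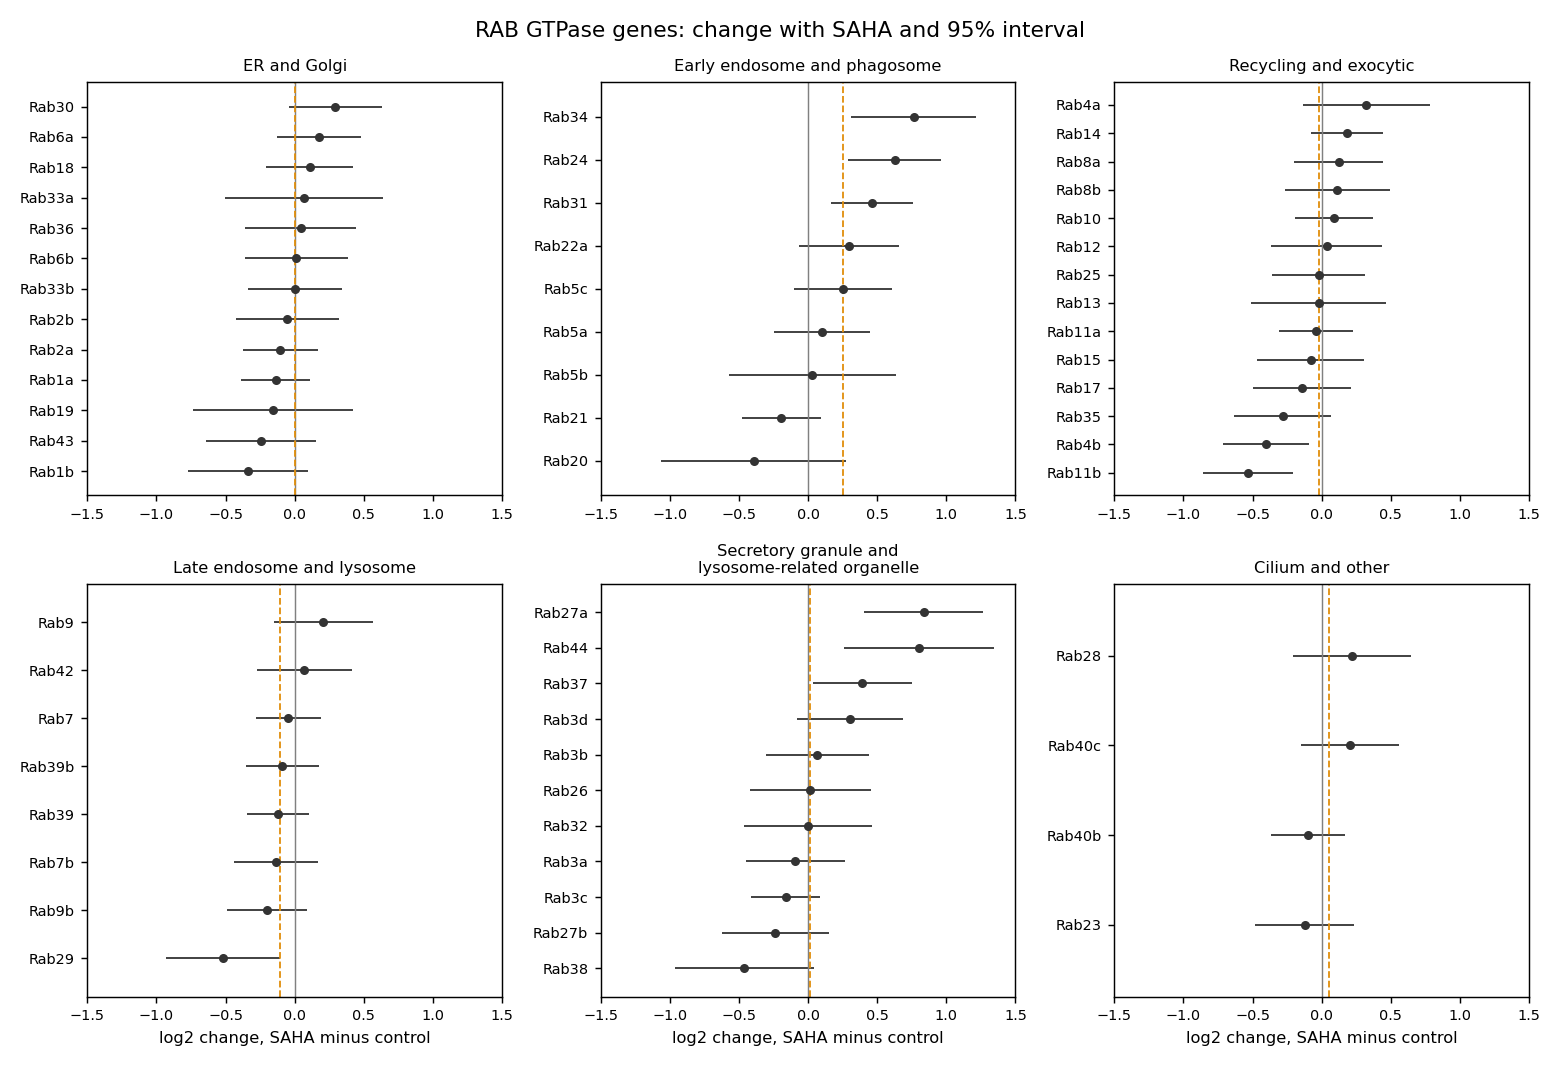
Each point is the log2 change of 1 RAB GTPase gene, SAHA minus control (x axis, log2 units), with its 95% interval from limma, and the dashed line is the median of its compartment. The early endosome and phagosome group sits to the right with a median of 0.25, while the other medians lie between -0.11 and 0.054. Every gene missed the threshold over all genes.

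The promoter sequences of the GTPases with the largest changes are shown so that their gene starts can be compared, since histone deacetylases are known to act on chromatin there. They are from RefSeq, build GRCm38.p6, and run from 250 bases before to 50 bases after the annotated start. Of the 59 GTPases 48 had an entry, with 60 windows in all. The genes with the largest changes other than Rab44 are given, each at its most upstream start. Capitals mark the GC box GGGCGG and the E-box CACGTG with the longer CLEAR letters (GT before the E-box and AC after it), all searched on both strands, so that a GC box on the other strand reads CCGCCC. Every CLEAR match is also an E-box match. Neither chromatin nor factor binding was measured on these arrays.
Rab27a (chr9:73044560-73044859, plus strand): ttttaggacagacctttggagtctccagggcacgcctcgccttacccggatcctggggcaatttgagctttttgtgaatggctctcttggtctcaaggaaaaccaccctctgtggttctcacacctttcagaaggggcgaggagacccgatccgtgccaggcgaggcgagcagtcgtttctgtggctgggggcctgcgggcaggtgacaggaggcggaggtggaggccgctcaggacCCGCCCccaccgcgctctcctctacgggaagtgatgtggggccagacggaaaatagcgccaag
Rab34 (chr11:78188177-78188476, plus strand): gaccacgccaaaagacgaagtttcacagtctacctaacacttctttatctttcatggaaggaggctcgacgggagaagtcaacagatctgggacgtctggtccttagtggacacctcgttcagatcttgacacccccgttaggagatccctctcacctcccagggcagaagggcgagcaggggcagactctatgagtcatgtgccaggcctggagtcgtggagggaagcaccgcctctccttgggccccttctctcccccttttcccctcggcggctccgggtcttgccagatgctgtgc
Rab24 (chr13:55321931-55322230, minus strand): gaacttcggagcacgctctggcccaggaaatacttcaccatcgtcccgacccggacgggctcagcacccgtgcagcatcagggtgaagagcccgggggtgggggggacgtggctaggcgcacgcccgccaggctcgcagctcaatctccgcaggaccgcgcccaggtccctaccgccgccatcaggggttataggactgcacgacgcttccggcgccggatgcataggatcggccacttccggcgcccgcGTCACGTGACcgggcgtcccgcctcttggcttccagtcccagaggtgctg
Rab11b (chr17:33760437-33760736, minus strand): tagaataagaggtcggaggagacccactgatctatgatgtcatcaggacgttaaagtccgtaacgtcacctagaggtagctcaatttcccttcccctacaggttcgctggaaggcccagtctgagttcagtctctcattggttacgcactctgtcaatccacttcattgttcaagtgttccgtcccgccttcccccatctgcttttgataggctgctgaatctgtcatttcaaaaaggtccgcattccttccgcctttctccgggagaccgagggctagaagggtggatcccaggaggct
Rab29 (chr1:131867027-131867326, plus strand): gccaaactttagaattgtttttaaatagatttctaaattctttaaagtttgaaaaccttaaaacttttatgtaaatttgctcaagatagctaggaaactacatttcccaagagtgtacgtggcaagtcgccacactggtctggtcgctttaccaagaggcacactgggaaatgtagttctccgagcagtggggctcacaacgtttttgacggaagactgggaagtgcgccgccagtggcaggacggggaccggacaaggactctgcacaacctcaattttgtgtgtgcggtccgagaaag

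These windows differ in base composition. The Rab24 window holds 32 CpG dinucleotides, the Rab27a window 18, the Rab34 window 13, and those of Rab11b and Rab29 hold 12 each. The median was 19.5 over the GTPase windows and 7 over all 32851 windows. The GC box was found in the Rab27a window and in the second Rab34 window, and in 68.3% of GTPase windows against 35.7% of all windows. It was not found in the windows printed for Rab34, Rab24, Rab11b and Rab29.

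The CLEAR letters, known as the recognition sequence of TFEB and its relatives in front of lysosomal and autophagy genes, were looked for after the Rab24 sequence had been read. They occur in 3 of the 60 GTPase windows and in 0.326% of all windows. The letters hold a CpG, of which GTPase windows have more (median 19.5 against 7), and windows of like CpG content were not compared. Those 3 windows belong to Rab24, Rab5a and Rab21, all of early endosomes, phagosomes or autophagosomes, and the 30 bases around each are given with the CLEAR letters in capitals.
Rab24 (chr13:55321961-55321990, minus strand): cggcgcccgcGTCACGTGACcgggcgtccc
Rab5a (chr17:53479127-53479156, plus strand): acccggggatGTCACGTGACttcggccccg
Rab21 (chr10:115315604-115315633, minus strand): gcccaccgcgGTCACGTGACgaggggtgtg

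None of these 3 genes passed the test. Rab24 had a change of 0.63, Rab5a of 0.10 (interval -0.25 to 0.45) and Rab21 of -0.19 (interval -0.48 to 0.090). The E-box was found in 6 GTPase windows, or 10% against 7.15% of all windows, and the genes with it but without the CLEAR letters were Rab20, Rab23 and the second start of Rab27a.

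Of the 9 RAB genes of early endosomes and phagosomes 7 had a change above 0, against 7502 of all 18194 genes, with a median of 0.25. Both SAHA arrays lay above both control arrays for 5 of the 9, where 21.1% of all genes did. No gene of the group passed the test, and 3 had an unadjusted p under 0.05, all higher, where 9.17% of all genes did. The group was formed with earlier results of these data known, so its median is a description. It also depends on which genes are placed in the group. Rab24, at 0.63, was placed here for its part at autophagosomes. Rab42 (0.07), Rab43 (-0.25) and Rab39 (-0.12, at a level that gives no fold) have a part at phagosomes but were placed elsewhere. The median under other placements was not tested.

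Rab34, which acts on macropinosomes and phagosomes and sets the position of lysosomes, had values of 9.02 and 8.85 in SAHA-treated cells and 8.38 and 7.96 in control cells. Both SAHA arrays were above both controls, and the lower of the controls, replicate 2, was the one farthest away. The change was 0.76 ± 0.19 log2 units (SE, n = 2 per group), or 1.70-fold, with an adjusted p of 0.107 in limma. A second probe set of Rab34 gave 1.00 ± 0.26. Without control replicate 1 the change was 0.98 and its adjusted p 0.0497, the only fit without 1 array in which any RAB gene passed.

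Rab24, an atypical RAB that takes part in the clearance of autophagosomes, had values of 10.39 and 10.20 in SAHA-treated cells and 9.62 and 9.72 in control cells. The groups did not overlap and each pair lay close together. The change was 0.63 ± 0.14 (SE, n = 2 per group), or 1.54-fold, with an adjusted p of 0.0868 in limma. The second probe set of Rab24 gave 0.73, and both of its SAHA arrays were also above both controls.

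Rab31, a relative of the RAB5 group that serves the trans-Golgi and early endosomes, had values of 11.04 and 10.94 in SAHA-treated cells and 10.50 and 10.55 in control cells. These groups did not overlap, with a change of 0.46 ± 0.12 (SE, n = 2 per group) and an adjusted p of 0.128 in limma. Its second probe set gave -0.01, so its probe sets disagreed. Rab22a, which sorts cargo from early to recycling endosomes, had values of 9.20 and 9.37 in SAHA-treated cells and 9.08 and 8.91 in control cells, a change of 0.29 with no overlap. Its further 3 probe sets ranged from -0.06 to 0.22.

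The RAB5 genes direct the fusion of early endosomes. Rab5a had values of 11.07 and 11.20 in SAHA-treated cells and 10.89 and 11.17 in control cells, which overlapped, and its change of 0.10 had an interval of -0.25 to 0.45. Rab5b had a change of 0.029 and Rab5c of 0.25. Rab20, which helps phagosomes mature, had values of 8.02 and 8.24 in SAHA-treated cells and 8.11 and 8.94 in control cells. They overlapped, and control replicate 2 was the high array, so the change of -0.39 was 0.021 without it and -0.81 without control replicate 1. Rab21, which carries integrins inward, had a change of -0.19 with both SAHA arrays below both controls.

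The secretory granule group held the widest range, from -0.46 to 0.83 over 11 genes, with a median of 0.015. Rab27a docks cytotoxic granules and melanosomes at the plasma membrane and is known in dendritic cells for its part at the phagosome. Its values were 8.04 and 8.29 in SAHA-treated cells and 7.19 and 7.47 in control cells. Every SAHA array was higher than every control array by more than the spread within either group. The change of 0.83 ± 0.18 (SE, n = 2 per group), or 1.78-fold, had the smallest adjusted p of the RAB genes, 0.0757 in limma. The further probe sets of Rab27a, all dimmer, gave 0.28, 0.20 and -0.12, and the mean of all its probe sets gave 0.30. Rab27b, which shares its granule and exosome roles, had a change of -0.24 with both SAHA arrays below both controls. It was read by a probe set that can share sequence with other genes. Its further probe sets lay under the percentile used above for low levels on every array. They gave -0.05, -0.07 and 0.10, and at that level they give no fold. Whether Rab27b itself was detected was not tested.

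Rab44, an unusually large RAB of granules, had values of 5.79 and 5.13 in SAHA-treated cells and 4.69 and 4.62 in control cells. Both SAHA arrays were higher, replicate 1 the more so, and the change of 0.80 ± 0.22 (SE, n = 2 per group) had an adjusted p of 0.138 in limma. It was 0.47 (adjusted p = 0.505) without SAHA replicate 1 and 0.42 with an offset of 32 added on the linear scale. Rab37, a RAB of mast cell and other secretory granules, had values of 4.96 and 5.16 in SAHA-treated cells and 4.55 and 4.78 in control cells, a change of 0.39 with no overlap. Its second probe set gave 0.63. Beside these granule genes, the mast cell and basophil markers had summed linear values of 322 to 339 in SAHA-treated and 373 to 443 in control arrays. The largest part of these sums is Gata2, at 7.15 and 6.87 in SAHA-treated and 7.85 and 7.08 in control arrays. None of the 9 markers passed, and Mcpt8, Fcer1a and Ms4a2 were under the 25th percentile on all 4 arrays. The neutrophil and osteoclast marker lists did differ as given above. The part of these cells, or of mast cells and basophils, in the granule RAB values was not tested.

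Rab3d, which serves regulated exocytosis in secretory cells, had a change of 0.30 in its brightest probe set, with values of 10.27 and 10.05 in SAHA-treated cells and 9.99 and 9.72 in control cells. Its further 3 probe sets gave 0.99, 0.66 and 0.45, and all 4 had both SAHA arrays above both controls. The probe set at 0.99 had an adjusted p of 0.0797 in limma over all probe sets, and it was picked out after its values were seen. Its relatives Rab3a, Rab3b and Rab3c, known mainly from neurons and endocrine cells, had changes of -0.09, 0.07 and -0.16, and Rab3c lay under the 25th percentile on 3 of 4 arrays. Rab26, a RAB of secretory granules, had a change of 0.015.

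Rab32, Rab38 and Rab29 are closely related and serve lysosome-related organelles and stressed lysosomes. Rab32 had values of 10.87 and 11.00 in SAHA-treated cells and 10.67 and 11.20 in control cells, so the SAHA arrays lay inside the control range and the change of -0.00013 had an interval of -0.46 to 0.46. Rab38 had a change of -0.46 with both SAHA arrays below both controls, and its second probe set gave -0.41. Rab29, counted here with the late endosome genes, had values of 9.76 and 10.16 in SAHA-treated cells and 10.44 and 10.52 in control cells. The groups did not overlap, and the change of -0.52 ± 0.17 (SE, n = 2 per group) had an adjusted p of 0.190 in limma. Without SAHA replicate 1 it was -0.32 (adjusted p = 0.716).

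**Figure D2:**
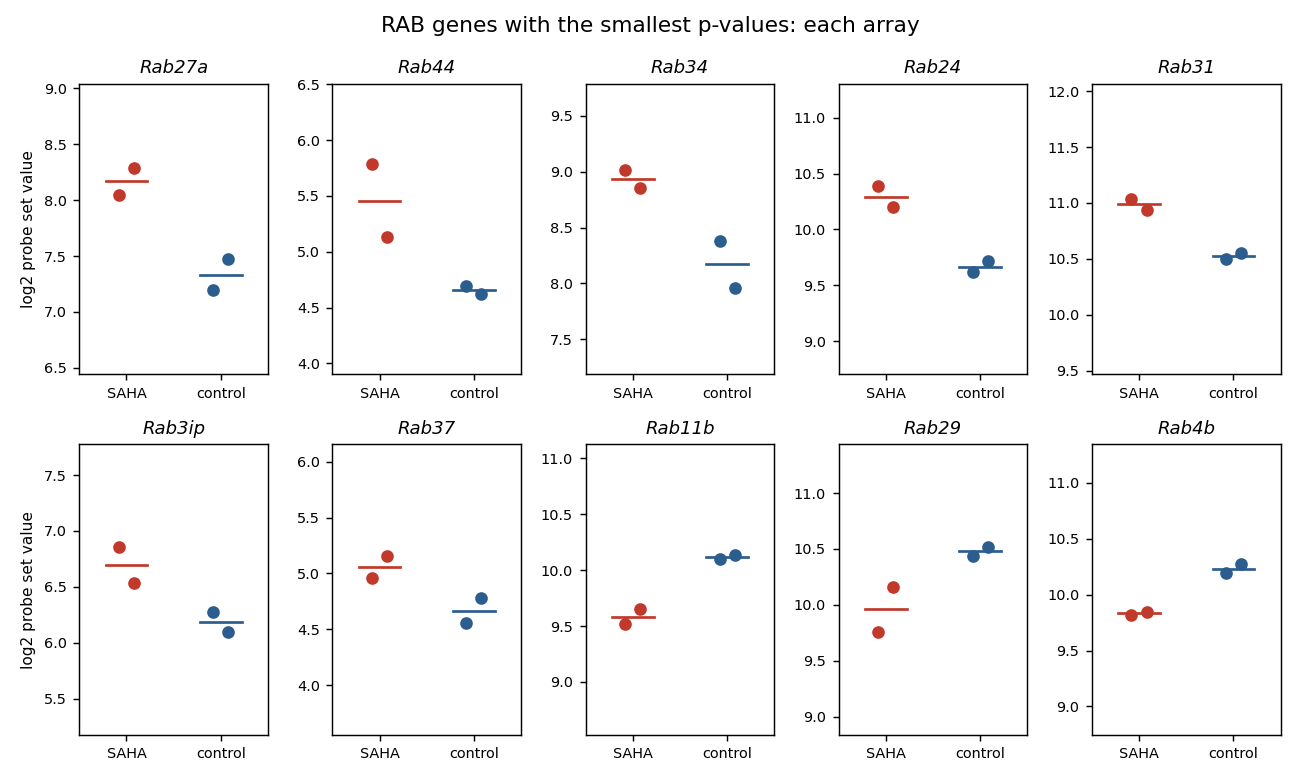
Each panel shows the log2 value of 1 RAB gene (y axis, 2.6 log2 units in every panel) on the 2 SAHA arrays (red) and the 2 control arrays (blue), with bars at the group means. The 10 genes are those with an unadjusted p under 0.05, so their separation was used to choose them, and Rab27a and Rab11b show the SAHA and control points apart on opposite sides.

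Among late endosome and lysosome genes the median change was -0.11, and 6 of 8 were below 0, against 10692 of all 18194 genes. These include Rab39 and Rab9b, whose values are under the 25th percentile on all 4 arrays, and with a floor at that percentile the median was -0.059. Rab7, which drives the fusion of late endosomes with lysosomes and phagosomes, had values of 13.27 and 13.34 in SAHA-treated cells and 13.38 and 13.32 in control cells. They overlapped, and the interval of its change of -0.05 ran from -0.28 to 0.19, one of the narrowest among the RABs. Its second probe set gave -0.25 ± 0.11 (SE, n = 2 per group), with both SAHA arrays below both controls. Rab7b, which moves cargo from late endosomes to the Golgi, had a change of -0.14, and Rab9, which returns receptors to the Golgi, of 0.21. Rab39 had values of 3.32 and 3.25 in SAHA-treated cells and 3.34 and 3.47 in control cells. At that level neither Rab39 nor Rab9b gives a fold. Rab42 and Rab39b had changes of 0.07 and -0.09.

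The recycling and exocytic RABs gave 6 changes above 0 and 8 below over 14 genes, with a median of -0.022. Rab11b, which controls slow recycling to the surface, had values of 9.52 and 9.65 in SAHA-treated cells and 10.10 and 10.13 in control cells. Each pair was tight and the groups did not overlap. The change was -0.53 ± 0.13 (SE, n = 2 per group), or 1.45-fold lower, with an adjusted p of 0.112 in limma. Its further probe sets, which were dimmer, gave 0.11 and 0.06, and the mean of its probe sets gave -0.12. Rab11a, its near-identical relative, had values of 12.13 and 12.02 in SAHA-treated cells and 12.12 and 12.12 in control cells, a change of -0.04, and its second probe set gave 0.35. Rab25, the third gene of that family, had a change of -0.02.

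The RAB4 pair, which serves fast recycling, pointed in opposite directions. Rab4b had values of 9.82 and 9.85 in SAHA-treated cells and 10.20 and 10.27 in control cells, a change of -0.40 with an adjusted p of 0.182 in limma. Rab4a, read by a probe set that can share sequence with other genes, had values of 6.93 and 6.57 in SAHA-treated cells and 6.54 and 6.31 in control cells, a change of 0.32 with an adjusted p of 0.424 in limma. The groups did not overlap for either gene, and the difference between the genes was not tested. Rab35, which recycles cargo and organises actin, had values of 9.37 and 9.23 in SAHA-treated cells and 9.67 and 9.50 in control cells, a change of -0.28 with both SAHA arrays below both controls.

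Rab14, which moves MHC molecules and other cargo between endosomes, Golgi and surface, had values of 12.75 and 12.80 in SAHA-treated cells and 12.66 and 12.54 in control cells, a change of 0.18 with both SAHA arrays above both controls. Its 7 probe sets ranged from -0.02 to 0.61, and none passed over all probe sets. Rab8a had a change of 0.12, Rab8b of 0.11, Rab10, which brings TLR4 to the surface of macrophages, of 0.09, and Rab13 of -0.02. Rab12, Rab15 and Rab17 had changes of 0.04, -0.08 and -0.15.

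The genes of the ER and Golgi spanned -0.34 to 0.29 over 13 genes with a median of 0.0037, and 0 had an unadjusted p under 0.05. Rab1a and Rab1b, which carry cargo from the ER to the Golgi, had changes of -0.14 and -0.34, and both SAHA arrays were below both controls for each. Rab2a and Rab2b, which act at the intermediate compartment and the Golgi, had changes of -0.10 and -0.05. Rab43, a Golgi RAB known for cross-presentation in dendritic cells, had values of 9.74 and 10.11 in SAHA-treated cells and 10.13 and 10.22 in control cells. SAHA replicate 2 was just below the lower control and replicate 1 well below it. The change was -0.25 with an interval of -0.64 to 0.15, and -0.060 without SAHA replicate 1.

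Of the other Golgi and ER genes, Rab30 had a change of 0.29, Rab6a of 0.17 and Rab18, which binds lipid droplets, of 0.11. Rab33a, Rab36, Rab33b and Rab19 lay between -0.16 and 0.07. Rab6b had a change of 0.01 in its brightest probe set, whereas another gave 1.09, with values of 5.85 and 5.66 in SAHA-treated cells and 4.97 and 4.37 in control cells. That probe set had an adjusted p of 0.0799 in limma over all probe sets and was picked out after its values were seen. Among the 4 cilium and other genes, the changes were 0.22 for Rab28, 0.21 for Rab40c, -0.10 for Rab40b and -0.12 for Rab23, a regulator of hedgehog signalling.

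**Figure D3:**
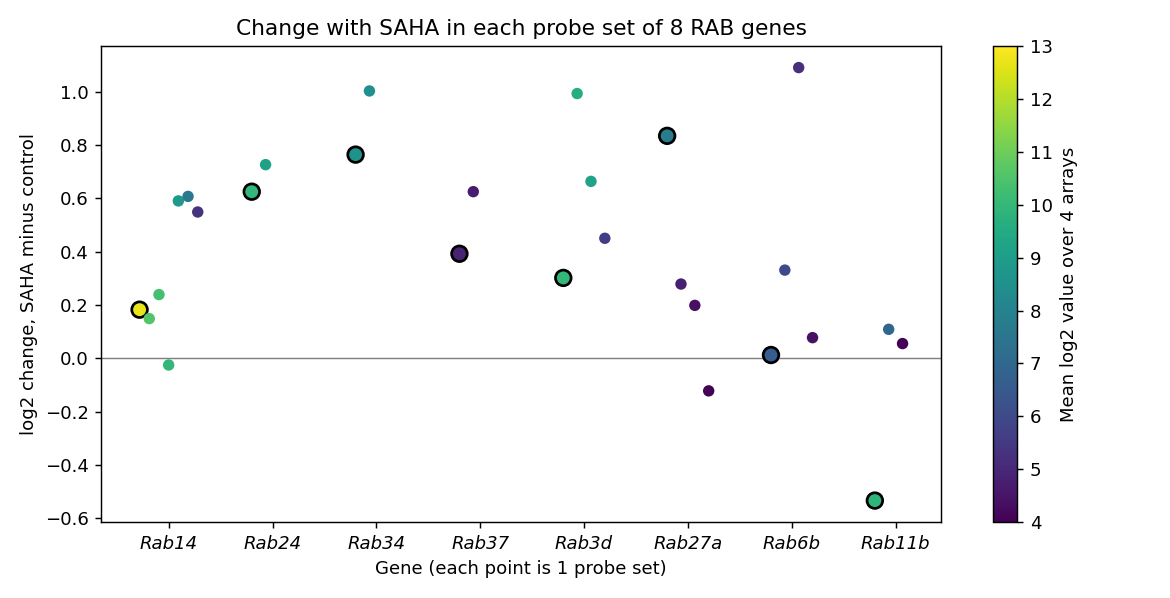
Each point is the log2 change, SAHA minus control (y axis), of 1 probe set of a RAB gene (x axis), coloured by its mean log2 value over the 4 arrays, and the outlined point is the brightest one. All probe sets of Rab24, Rab34, Rab37 and Rab3d lie above 0, while Rab6b and Rab27a each hold 1 far above their others and Rab11b has 1 below 0 and 2 above it.

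For 19 of the 69 genes the probe set used is of a type that can match several transcripts. Probe sets of a gene did not always point the same way. The 69 genes had 156 probe sets, of which 132 were above the 25th percentile on all arrays. Among the 40 genes with several such probe sets, all lay on 1 side of 0 for 22. None of the 156 passed when all probe sets on the array were tested separately with limma.

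The RAB-binding proteins that the symbol rule also caught did not pass either. Rab3ip, also called Rabin8, an exchange factor for RAB8, had values of 6.86 and 6.53 in SAHA-treated cells and 6.27 and 6.09 in control cells. The groups did not overlap, and the change of 0.51 ± 0.18 (SE, n = 2 per group) had an adjusted p of 0.212 in limma. Its relative Rab3il1 had a change of 0.16, and the RAB11 effectors Rab11fip1 to Rab11fip5 ranged from -0.19 to 0.25. Of the opposite-strand transcripts Rab10os had a change of -0.18 and Rab26os of -0.11, and Rab11fip4os1 was under the 25th percentile on all 4 arrays.

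The genes that load, switch off and read out RABs did include called ones. Of 134 such partner genes on 5 lists 127 were measured, 7 of them the RAB-binding proteins above. In all 4 were higher and 1 was lower with SAHA (limma over all genes, adjusted p under 0.05), where 1.52% and 0.709% of all genes were called. Their median change was 0.00051, against -0.048 for all genes. All calls were lost without SAHA replicate 1, when 31 genes passed on the whole array, and 2 higher and 0 lower were left without SAHA replicate 2. The changes themselves stayed near their size without SAHA replicate 1, at 1.41 for Rilpl1, 1.39 for Hook1, 1.26 for Chml, 0.98 for Dennd2d and -1.24 for Rilp, with adjusted p from 0.108 to 0.224 in limma.

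The effectors gave 3 of these calls among 49, 2 higher and 1 lower, where 1.52% and 0.709% of all genes were called. Rilp, which ties RAB7 on late endosomes to the dynein motor, had values of 6.42 and 6.64 in SAHA-treated cells and 7.88 and 7.89 in control cells. The groups were far apart, and Rilp fell 2.55-fold (log2 change -1.35 ± 0.16, SE, n = 2 per group, adjusted p = 0.0184 in limma). It has 1 probe set. Rab7, its partner, had a change of -0.05 in its brightest probe set and -0.25 in the other, as given above.

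Rilpl1, a related protein known to bind phosphorylated RAB8 and RAB10, had values of 7.68 and 7.25 in SAHA-treated cells and 5.80 and 5.88 in control cells. Rilpl1 rose 3.08-fold (1.62 ± 0.19, SE, n = 2 per group, adjusted p = 0.0180 in limma). Of its further probe sets 1 gave 1.54 and the others 0.04 and 0.20, and the mean over its probe sets gave 0.85 (adjusted p = 0.0361). Hook1, a dynein adaptor of endosomes, had values of 8.44 and 7.87 in SAHA-treated cells and 6.62 and 6.34 in control cells. Hook1 rose 3.19-fold (1.67 ± 0.23, SE, n = 2 per group, adjusted p = 0.0277 in limma), and its second probe set lay under the 25th percentile on 3 of 4 arrays, so it gives no fold.

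Among the 9 measured genes of prenylation and delivery, 1 was called higher, where 1.52% of all genes were. Chml, the escort protein REP2 that presents new RABs for lipid attachment, had values of 8.12 and 8.27 in SAHA-treated cells and 7.11 and 6.91 in control cells. Chml rose 2.27-fold (1.18 ± 0.16, SE, n = 2 per group, adjusted p = 0.0273 in limma). Its second probe set gave -0.07, and the call was lost when both were averaged (adjusted p = 0.0846).

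Of 30 exchange factors 1 was called, higher with SAHA, where 1.52% of all genes were called higher. Dennd2d, a DENN-domain protein, had values of 7.34 and 7.19 in SAHA-treated cells and 6.18 and 6.25 in control cells. Dennd2d rose 2.07-fold (1.05 ± 0.15, SE, n = 2 per group, adjusted p = 0.0330 in limma). Its second probe set gave 0.21, and the call was lost when both were averaged (adjusted p = 0.0722).

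None of 35 GTPase-activating proteins passed, with 6 higher and 3 lower at an unadjusted p under 0.05 in limma, or 25.7% of them against 18.1% of all genes (9.17% higher and 8.9% lower). Tbc1d4, also called AS160, which acts on RAB10 and its relatives, had values of 8.86 and 9.79 in SAHA-treated cells and 9.98 and 11.02 in control cells. Replicate 2 was the higher array in both groups, and the change of -1.18 ± 0.41 (SE, n = 2 per group) had an adjusted p of 0.210 in limma. It depended on single arrays, at -1.70 (adjusted p = 0.0497) without control replicate 1, -0.66 (0.467) without control replicate 2 and -0.71 (0.677) without SAHA replicate 1. Evi5l had a change of 0.78 with an adjusted p of 0.0732 in limma, and 0.42 with its probe sets averaged.

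None of the 4 RAB kinases and phosphatases passed, and 0 were higher and 1 lower at an unadjusted p under 0.05 in limma, where 9.17% of all genes were higher and 8.9% lower. Lrrk1, which phosphorylates RAB7, had values of 9.06 and 9.44 in SAHA-treated cells and 9.86 and 9.96 in control cells. The groups did not overlap, and the change of -0.66 ± 0.17 (SE, n = 2 per group) had an adjusted p of 0.121 in limma. Its further probe sets gave -0.66 and -0.80. Lrrk2, which phosphorylates RAB8, RAB10 and RAB29, had values of 8.64 and 8.37 in SAHA-treated cells and 8.39 and 8.11 in control cells, which overlapped, a change of 0.25.

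**Figure D4:**
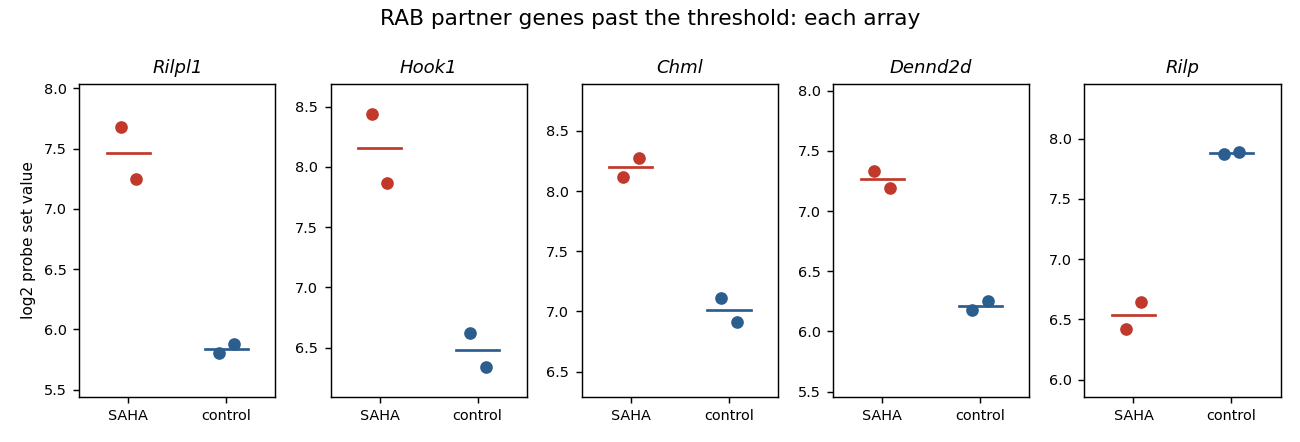
Each panel shows the log2 value (y axis, 2.6 log2 units in every panel) of 1 RAB partner gene that passed the threshold, on the 2 SAHA arrays (red) and the 2 control arrays (blue), with bars at the group means. The SAHA arrays are above control for Rilpl1, Hook1, Chml and Dennd2d and below control for Rilp.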

How the data were processed

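Labelled cRNA from 6 µg of total RNA was hybridised to Affymetrix arrays, per the labels' protocols. The authors deposited log2 values per probe set, a scale read from the values (2.59 to 15.0). The submitters' processing notes name R 2.7. The steps of probe summary and normalization are not given in the sources used here. Array medians spanned 0.0118, and no further normalization was applied. Precision is limited by the number of arrays.

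Of 45101 probe sets 34958 had 1 gene symbol, 932 several and 9211 none in the platform annotation, which can be old. Symbols were updated through Entrez identifiers for 34754. Each of the 18194 genes was read by its brightest probe set on average. Groups came from the sample titles. The comparison was fitted with limma (version 3.58.1, R 4.3.3) using lmFit, then eBayes with the spread trended on intensity, with two-sided tests and without covariates or a filter, at a Benjamini-Hochberg adjusted p under 0.05 over all genes. The fit was tested on simulated data.

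The members, compartments, partner lists and marker lists were chosen with earlier results of these data known. Values per array are given for RAB genes past the threshold, for those whose groups do not overlap with an absolute change of at least 0.5, and for 12 genes with a known part in antigen handling. Partners were named if past the threshold, or else as the 2 largest changes of a list above the median level. Rab31, Rab37, Rab3d, Rab4a, Rab4b and the Rab6b probe set at 1.09 were given per array outside this rule, after their values were seen. Of 134 partners 7 were not analysed here. Alternatives were eBayes without the trend or with robust spread, quantile normalization, an offset of 32, a floor at the 25th percentile, genes above the median level, averaged or separate probe sets, the replicate number as a term, and fits without each array. Protein sequences were not used here, and promoters were printed in their place.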

Additional observations from a re-analysis of the deposited data

How the results depend on the processing

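The absence of RAB calls held without the trend, with robust spread, quantile normalization, the offset, the floor, genes above the median level, averaged probe sets and separate probe sets. Without 1 array in turn, 0 to 1 RAB genes were higher (Rab34 without control replicate 1) and 0 lower. With the replicate block 7 RAB genes were higher and 5 lower, 16 partners higher and 17 lower, and 3616 genes passed on the whole array against 405. Deviations of same-numbered arrays correlated at 0.567 across genes. No label ties the numbers to a shared culture and there are only 2 pairs, so the block was not used for calls.

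Partner calls were 2 higher and 2 lower with averaged probe sets, 3 lower without the trend and 2 lower with the floor. Without 1 array they ranged from 0 to 5 higher and from 0 to 2 lower. Compartment medians changed under these settings, some by less than the spread between replicates where 1 array was left out. The ER and Golgi median was -0.047 with quantile normalization, -0.078 for genes above the median level and 0.069 with averaged probe sets, and -0.091 to -0.021 without 1 array. The early endosome median was 0.19 with quantile normalization, 0.23 with the offset and 0.17 with averaged probe sets, and 0.21 to 0.32 without 1 array. The late endosome median was -0.038 with the offset and -0.059 with the floor, and -0.12 to -0.056 without 1 array. The cilium median was 0.080 with the offset and 0.21 for genes above the median level, and -0.017 to 0.024 without 1 array. The recycling median was -0.082 to 0.066 and the granule median -0.097 to 0.18 without 1 array.

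Single genes changed sign under some settings. Rab11a was 0.16 with averaged probe sets and 0.35 in its second probe set. In further probe sets Rab11b was 0.11 and 0.056, Rab14 -0.025, Rab22a -0.063, Rab27a -0.12 and Rab43 0.0050. Without 1 array Rab11a ranged from -0.097 to 0.013, Rab20 from -0.81 to 0.021, Rab32 from -0.26 to 0.26 and Rab5a from -0.039 to 0.24. The cause was not tested in any of these.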
